A study of Lens culinaris with 18 samples.

Results

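Lcu.2RBY.7g031050 and Lcu.2RBY.7g031150 are lentil (Lens culinaris) genes that the study lists as vicilin genes. They are the members of its list of 16 vicilin genes whose identifiers begin with Lcu.2RBY.7g, where the 7 stands for the chromosome. Their levels in these data were already known when they were chosen. They are 2 of the 58243 genes in the deposited count tables, and the other 14 listed vicilin genes served for comparison. The tables give each gene an identifier with no coordinates, length or description, so no position, sequence or role of either single gene is given here.

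Vicilins are storage globulins of legume seeds. They are made in the embryo, mainly in the cotyledons, packed into protein storage vacuoles while the seed fills, and broken down as a nitrogen source at germination. Lentil carries a family of related vicilin genes, and the lentil allergen Len c 1 belongs to this protein family.

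RNA-seq was made from dissected mature green seeds of M11, a natural accession labelled CN 45073, and of the cultivars Redmoon (CDC Redmoon) and Gold (CDC Gold). Embryos, and seed coat together with endosperm (called seed coat hereafter), were sequenced from each line, with 3 libraries for each of the 6 groups and 18 in all. The plants were grown in a growth chamber and received no treatment. M11 was selected in the study for a mutated allele of LcLTP3b, the lipid transfer protein gene of the allergen Len c 3. M11 is 1 accession and not a near-isogenic line of either cultivar, so that allele and the rest of its genome cannot be told apart in any difference below. It is not stated whether libraries of the same group are from separate plants, and the p-values measure the spread between libraries, which may be technical. The study asked how vicilin transcripts of M11 compare with those of the cultivars.

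The shallowest library, of Gold embryos, had 3270275 counts, while the other Gold embryo libraries had 20805496 and 22958727. The deepest, of Gold seed coat, had 24309401. The tissue labels were checked with the other 14 vicilin genes, which together had 135193 to 352607 CPM (counts scaled to a common library total of 1e+06) in embryos of the 3 lines and 1700 to 7548 CPM in their seed coats. The line labels of the cultivars did not hold together across tissues. In both tissues, 116 genes were on in 1 cultivar (2 CPM or more in each library) and off in the other (0.1 CPM or less in each library). The cultivar with the gene on changed between embryos and seed coat for all 116, and it was the same for 0 of them. Groups are named by their labels throughout. Results that set embryos of Redmoon or Gold beside seed coat are given as labelled and again with the Redmoon and Gold labels of the seed coat libraries exchanged. An exchange in embryos in place of seed coat would touch the same comparisons. Within a tissue, exchanged labels would leave each value in place and swap the names Redmoon and Gold beside it. Which labelling is right was not tested.

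Levels below are CPM scaled by TMM (trimmed mean of M-values), which sets the bulk of genes equal between libraries, and each tissue was scaled on its own. Differences are log2 fold changes with the Benjamini-Hochberg adjusted p from edgeR's quasi-likelihood test over all genes tested. A gene was called at an adjusted p under 0.05. The test reports no standard error. The standard error (SE) given here is the absolute log2 fold change divided by the square root of the F statistic, and it is approximate. The scaling matters in embryos, where vicilin counts made up 13.99% ± 0.179 of M11 libraries, 34.2% ± 1.12 of Redmoon libraries and 35.4% ± 0.997 of Gold libraries (SD, n = 3 each). With library totals in place of TMM the median log2 difference of all genes in embryos became 0.64 between M11 and Redmoon, 1.26 between M11 and Gold and 0.62 between Redmoon and Gold. In bulk tissue, fewer cells of a type and less RNA per cell cannot be told apart.

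Lcu.2RBY.7g031050 differed widely among the embryos of the 3 lines. M11 stood between the cultivars, well above Redmoon and well below Gold. M11 embryos had 2207, 2130 and 2071 TMM-scaled CPM. Redmoon embryos had 314, 298 and 313, and Gold embryos had 15305, 14073 and 13997. The ranges of the 3 groups did not overlap, and the levels within a group lay close together.

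Relative to Redmoon, Lcu.2RBY.7g031050 rose in M11 embryos by 2.79 on the log2 scale (SE 0.06, edgeR adjusted p = 8.79e-22). Relative to Gold it fell by 2.76 in M11 embryos (SE 0.06, edgeR adjusted p = 2.13e-22). The contrast between the cultivars exceeded both, and Redmoon embryos were 46.9-fold below Gold embryos (log2 fold change -5.55, SE 0.07, edgeR adjusted p = 1.60e-26). Calls were common in these embryos. The test called 63.6% of all genes between M11 and Redmoon, 74.0% between M11 and Gold and 55.2% between Redmoon and Gold, so a call by itself says little about a gene. By size, 6.82% of all genes had a larger difference than Lcu.2RBY.7g031050 between M11 and Redmoon, 10.8% between M11 and Gold and 2.50% between Redmoon and Gold. The cultivars were compared with each other, in both tissues, because this gene was already known to differ widely between them. Its wide differences between lines were known beforehand, so its sizes in all of the line comparisons are descriptive.

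**Figure D1:**
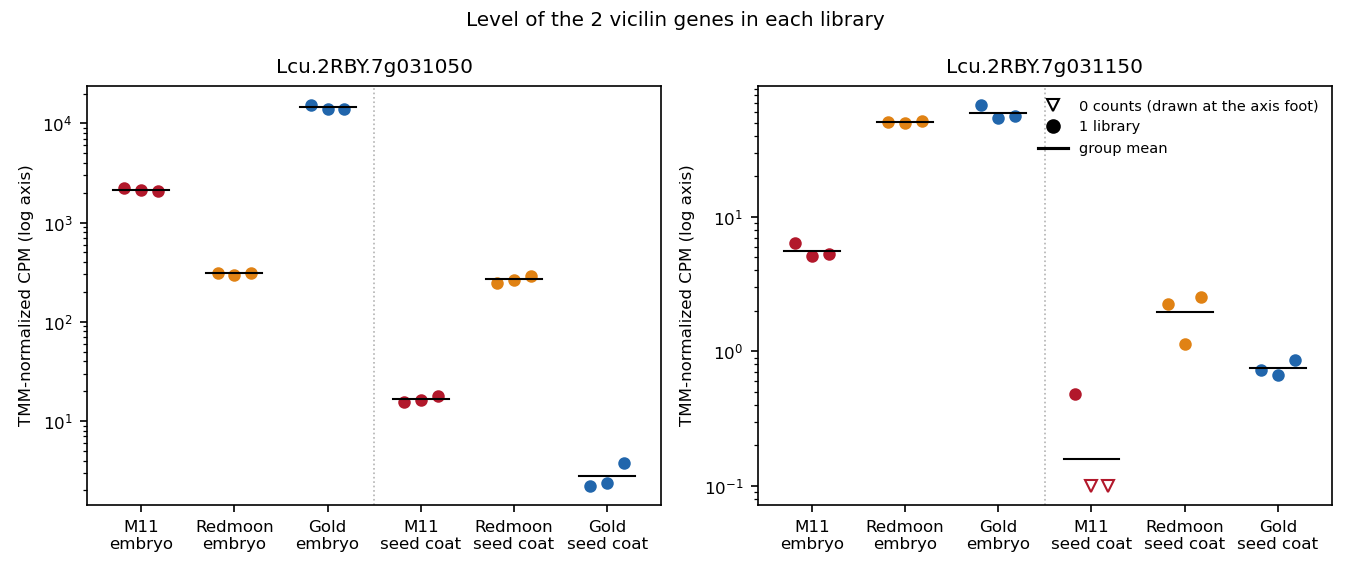
TMM-scaled CPM (log axis) of Lcu.2RBY.7g031050 and Lcu.2RBY.7g031150 in each library of M11, Redmoon and Gold, embryos and seed coat; filled points are libraries, lines are group means and open triangles are libraries with 0 counts. By label, Lcu.2RBY.7g031050 is highest in Gold among the embryos and highest in Redmoon among the seed coats, while Lcu.2RBY.7g031150 is lowest in M11 in both tissues.

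In seed coat, as labelled, Redmoon had the highest level of Lcu.2RBY.7g031050 and Gold the lowest. M11 seed coats had 15.7, 16.4 and 17.8 TMM-scaled CPM. Redmoon seed coats had 248, 263 and 291, and Gold seed coats had 2.22, 2.38 and 3.77. M11 again lay between the cultivars, and no ranges overlapped. As labelled the cultivars had changed places relative to embryos, and with exchanged seed coat labels the order was Gold, M11 and Redmoon from the highest in both tissues.

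Relative to Redmoon the level in M11 seed coat fell by 4.01 on the log2 scale (SE 0.08, edgeR adjusted p = 9.44e-48). Relative to Gold it rose by 2.56 in M11 seed coat (SE 0.15, edgeR adjusted p = 1.31e-23). Redmoon seed coat exceeded Gold seed coat by 6.57 (SE 0.08, edgeR adjusted p = 1.53e-58), a 94.9-fold difference. The same test called 71.5%, 72.8% and 66.4% of all genes in these comparisons, in that order. A larger difference was seen for 5.79% of all genes between M11 and Redmoon, 11.3% between M11 and Gold and 2.07% between Redmoon and Gold. The Gold level rested on 52, 50 and 92 counts per library.

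Lcu.2RBY.7g031150 was a scarce transcript by its counts, and among embryos it set M11 apart from both cultivars. M11 embryos had 6.41, 5.11 and 5.32 TMM-scaled CPM, from 198, 159 and 158 counts. Redmoon embryos had 50.5, 50.2 and 51.6, and Gold embryos had 67.8, 53.9 and 55.9. Every M11 library lay below every library of the cultivars, by a wide gap, whereas the cultivars lay near each other.

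Between M11 and Redmoon embryos Lcu.2RBY.7g031150 fell by 3.18 on the log2 scale in M11 (SE 0.09, edgeR adjusted p = 1.02e-19), and between M11 and Gold embryos it fell by 3.42 in M11 (SE 0.10, edgeR adjusted p = 1.90e-20). The direction between the cultivars depended on the scaling. With TMM, Redmoon was below Gold by a log2 fold change of -0.24 (SE 0.08, edgeR adjusted p = 0.0130). With library totals, Redmoon was above Gold by 0.38 (edgeR adjusted p = 0.000102), or -0.24 once the median shift of all genes is taken off. The TMM call was also lost without Gold replicate 1 (log2 fold change -0.10, edgeR adjusted p = 0.326).

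In seed coat Lcu.2RBY.7g031150 was near the limit of detection, so the counts themselves carry the comparison. M11 seed coats had 3, 0 and 0 counts. Redmoon seed coats had 23, 8 and 28 counts, and Gold seed coats had 17, 14 and 21 counts. The M11 libraries were the shallowest of this tissue, at 5907695 to 6691125 counts in total. Redmoon libraries had 7571791 to 11655232 and Gold libraries 21171045 to 24309401. At these unequal depths, every cultivar library held more counts of the gene than any M11 library. Pooled over libraries this is 0.158 CPM in M11 (95% exact Poisson interval 0.0326 to 0.462), 1.97 CPM in Redmoon (1.50 to 2.53) and 0.756 CPM in Gold (0.564 to 0.991), and these intervals cover counting error only. For the M11 libraries, 3 counts correspond to 0.508, 0.472 and 0.448 CPM, the level that a count of 0 still allows. TMM-scaled CPM did not overlap either, with 0.479, 0 and 0 in M11, 2.26, 1.13 and 2.53 in Redmoon and 0.725, 0.666 and 0.860 in Gold.

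By pooled counts the rate in Redmoon seed coat was 12.4 times that in M11 seed coat (95% interval 4.05 to 61.9), and the rate in Gold was 4.78 times that in M11 (1.55 to 23.9). The rate in Redmoon was 2.60 times that in Gold (1.76 to 3.85). In the edgeR fit, M11 fell by 3.70 on the log2 scale relative to Redmoon (SE 0.65, edgeR adjusted p = 9.91e-07) and by 2.26 relative to Gold (SE 0.74, edgeR adjusted p = 0.00527). Lcu.2RBY.7g031150 passed the filter on low counts in seed coat only through the Redmoon libraries, where it was highest. It had no test in a fit of M11 and Gold alone, nor in a fit of M11 and Redmoon alone. Its edgeR p-values in seed coat are therefore conditional on that filter and give no support of their own. With no filter the values were -3.73 relative to Redmoon (edgeR adjusted p = 1.13e-08) and -2.30 relative to Gold (edgeR adjusted p = 0.00302). All of these fitted values rest on the 3 counts of M11 replicate 1 and depend on the prior count. Without M11 replicate 1 no count is left in M11. The pooled rate was then 8.55 times a floor of 3 counts over the 2 remaining M11 libraries in Redmoon, and 3.29 times in Gold. These folds leave out the counting error of the cultivars, so they are not lower limits. Without M11 replicate 2 the fall relative to Gold was no longer called (log2 fold change -1.70, edgeR adjusted p = 0.0528), and likewise without M11 replicate 3 (-1.66, edgeR adjusted p = 0.0574). Redmoon exceeded Gold by 1.44 (SE 0.34, edgeR adjusted p = 0.000161).

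The pair of genes therefore showed different patterns of lines. In embryos M11 was above Redmoon for Lcu.2RBY.7g031050 and below Redmoon for Lcu.2RBY.7g031150, both called. Relative to Gold, M11 embryos were lower for both genes. In seed coat M11 was below Redmoon for both genes, while relative to Gold it was higher for Lcu.2RBY.7g031050 and lower for Lcu.2RBY.7g031150. With exchanged labels the seed coat value of Lcu.2RBY.7g031050 was 2.56 relative to Redmoon and -4.01 relative to Gold, the same signs as in embryos, and M11 stayed below both cultivars for Lcu.2RBY.7g031150. In each of these 6 line comparisons the libraries of the groups did not overlap in TMM-scaled CPM for either gene. Of all genes tested in embryos, 68.8% also had no overlap between M11 and Redmoon, 72.7% between M11 and Gold and 54.9% between Redmoon and Gold. In seed coat the corresponding shares were 72.3%, 74.4% and 69.9%.

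The number of counts on Lcu.2RBY.7g031050 per count on Lcu.2RBY.7g031150 is a measure within a library that no scaling changes. It was 345, 417 and 389 in M11 embryos, 6.21, 5.94 and 6.06 in Redmoon embryos and 226, 261 and 250 in Gold embryos. The Redmoon ratios stood far below the others, and the M11 and Gold ratios did not overlap. On the log2 scale the mean ratio was 8.58 ± 0.14 in M11, 2.60 ± 0.03 in Redmoon and 7.94 ± 0.11 in Gold (SD, n = 3 each). M11 exceeded Redmoon by 5.98 and Gold by 0.64, and the difference of Redmoon minus Gold was -5.34, each with an exact two-sided permutation p of 0.1, the smallest that 3 against 3 libraries allow.

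In seed coat the ratio was 32.7 in the 1 M11 library with counts of both genes, 110, 233 and 115 in Redmoon and 3.06, 3.57 and 4.38 in Gold. The Redmoon and Gold ratios did not overlap. Their order was the opposite of that in embryos as labelled and the same as in embryos with exchanged labels. Related vicilin genes can share reads, and how reads that match several genes were counted is not given in the sources used here, so the split of counts between single vicilin genes is uncertain.

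**Figure D2:**
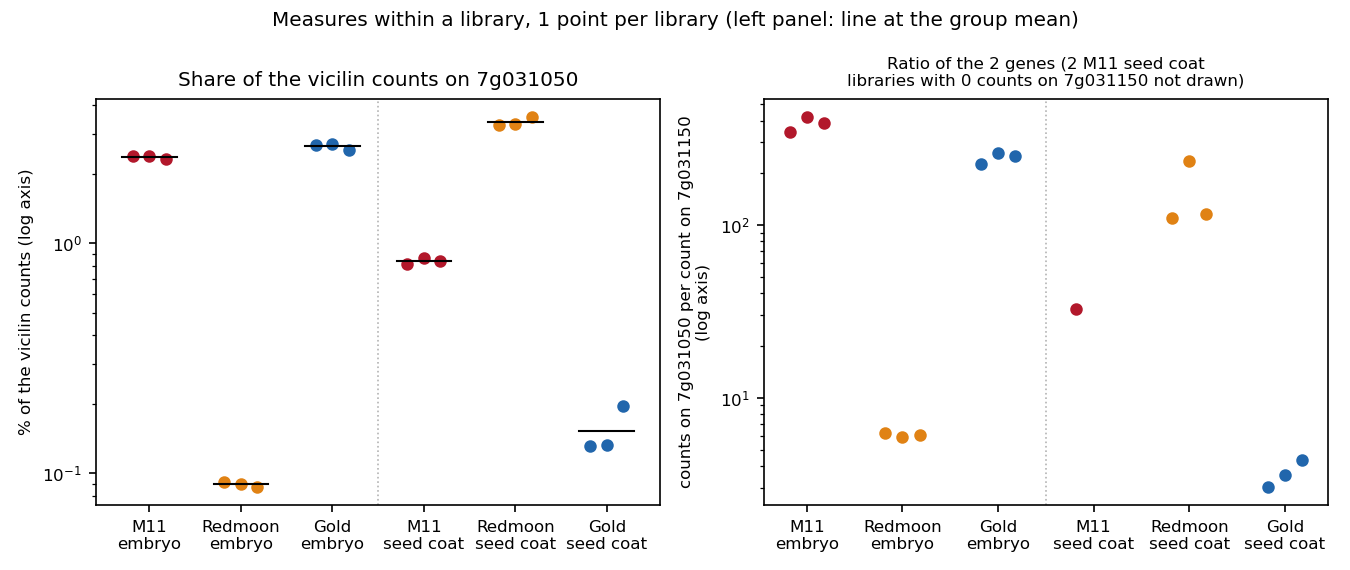
Left, percent of all vicilin counts of a library that fell on Lcu.2RBY.7g031050 (points are libraries, lines are group means); right, counts on Lcu.2RBY.7g031050 per count on Lcu.2RBY.7g031150 in each library (log axis). By label, Redmoon has the lowest values of both measures among embryos and the highest among seed coats, and M11 seed coat has 1 point at right because 2 of its libraries hold 0 counts of Lcu.2RBY.7g031150.

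Within the vicilin counts of a library, Lcu.2RBY.7g031050 held 2.37% ± 0.0420 in M11 embryos, 0.0897% ± 0.00224 in Redmoon embryos and 2.65% ± 0.0874 in Gold embryos (SD, n = 3 each). Its level in M11 embryos was far below that in Gold embryos, but its share of the vicilin counts was 0.893 times the Gold share. The M11 share was 26.4 times the Redmoon share. In seed coat it held 0.836% ± 0.0249 in M11, 3.37% ± 0.138 in Redmoon and 0.153% ± 0.0367 in Gold (SD, n = 3 each). None of these groups overlapped within a tissue, with an exact two-sided permutation p of 0.1 in each pair.

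The share of Lcu.2RBY.7g031150 was small in all groups. It was 0.00621% ± 0.000640 in M11 embryos, 0.0148% ± 0.000318 in Redmoon embryos and 0.0108% ± 0.000930 in Gold embryos (SD, n = 3 each), and the groups did not overlap (exact two-sided permutation p = 0.1 for each pair). By this measure Redmoon exceeded Gold 1.36-fold. In seed coat the means were 0.00829% in M11, 0.0249% in Redmoon and 0.0415% in Gold, and the M11 and Redmoon libraries overlapped (exact two-sided permutation p = 0.2). The M11 mean comes from the 3 counts of 1 library. Gold overlapped neither M11 nor Redmoon (exact two-sided permutation p = 0.1 each), and its share stood above that of Redmoon although its level stood below.

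The other listed vicilin genes give the setting. In embryos, 2 of these 14 genes were higher in M11 than in Redmoon and 12 were lower, with a median log2 fold change of -1.70. Of all genes tested 31.5% were higher and 32.1% lower, with a median near 0. Lcu.2RBY.7g031050 had the highest value of the 16 vicilin genes in this comparison, and Lcu.2RBY.7g031150 the lowest. Relative to Gold embryos, 3 of the 14 genes were higher in M11, 10 were lower and 1 was not called, with a median of -2.41, beside 36.9% higher and 37.1% lower among all genes. There Lcu.2RBY.7g031050 ranked 7 from the lowest and Lcu.2RBY.7g031150 ranked 2. Between Redmoon and Gold embryos 4 were higher in Redmoon, 9 were lower and 1 was not called (median -0.71, beside 27.7% higher and 27.4% lower among all genes), and Lcu.2RBY.7g031050 had the lowest value of the 16.

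In seed coat 13 of the other vicilin genes were tested. Relative to Redmoon, 1 was higher in M11 and 12 were lower, with a median of -1.90, beside 37.2% higher and 34.2% lower among all genes. Lcu.2RBY.7g031050 ranked lowest of 15 with Lcu.2RBY.7g031150 next. Relative to Gold, 6 were higher in M11, 6 were lower and 1 was not called, with a median of -0.18, beside 35.9% higher and 36.9% lower among all genes. The highest value among the 15 was that of Lcu.2RBY.7g031050 and the lowest that of Lcu.2RBY.7g031150. Between Redmoon and Gold 11 were higher in Redmoon, 1 was lower and 1 was not called (median 2.09, beside 32.6% higher and 33.8% lower among all genes), with Lcu.2RBY.7g031050 again highest. The wide line differences of Lcu.2RBY.7g031050 and the low seed coat level of Lcu.2RBY.7g031150 were known beforehand, so these places are descriptive. Whether these places in the family differ from what other genes of like counts would take was not tested.

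**Figure D3:**
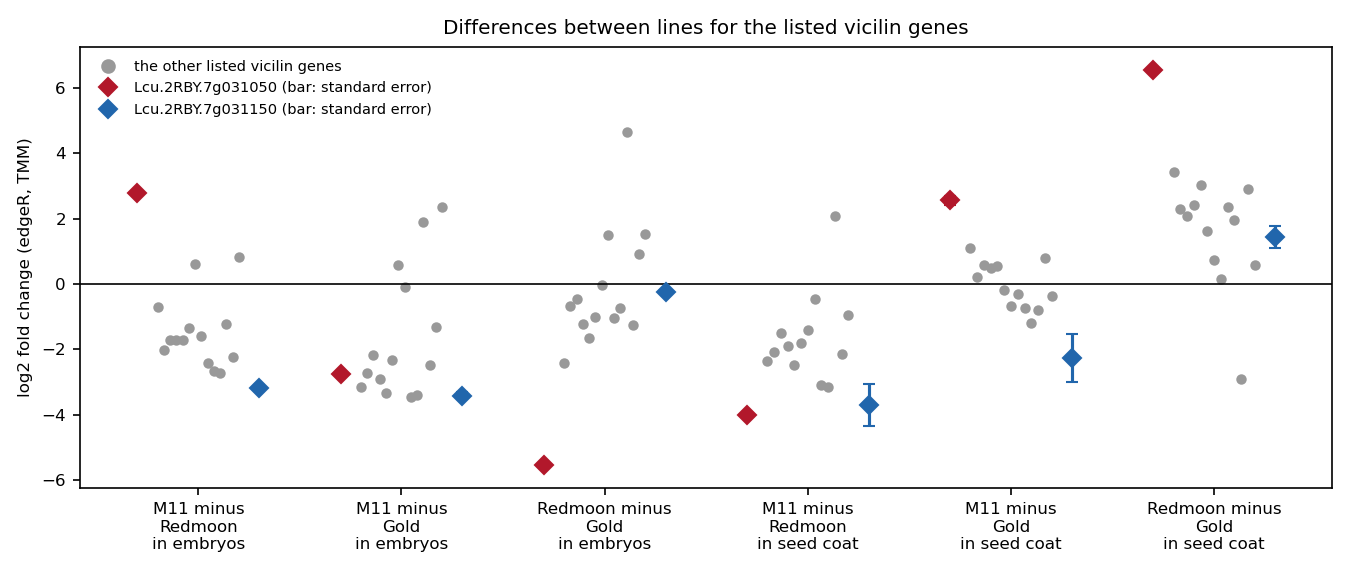
Log2 fold change of the listed vicilin genes in the 6 line comparisons; small points are the other vicilin genes, red diamonds are Lcu.2RBY.7g031050 and blue diamonds Lcu.2RBY.7g031150, with standard errors as bars. Lcu.2RBY.7g031050 lies at an end of the family in 5 of the 6 comparisons, all but M11 against Gold in embryos.

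Embryos exceeded seed coat for both genes in every line, by amounts that differed greatly. These differences come from 1 fit of all 18 libraries. For Lcu.2RBY.7g031050 the embryo level was higher by 7.97 on the log2 scale in M11 (SE 0.10, edgeR adjusted p = 5.56e-57). It was higher by 1.17 in Redmoon (SE 0.07, edgeR adjusted p = 3.53e-23) and by 13.20 in Gold (SE 0.12, edgeR adjusted p = 4.32e-64). The Redmoon difference was modest among genes, with 58.0% of all genes having a larger one, and the Gold difference was exceeded by 0.127% of them. The test called 79.4% of all genes in M11, 83.9% in Redmoon and 80.2% in Gold. Relative to library totals, the embryo mean was 3311 CPM in M11, 306 CPM in Redmoon and 9379 CPM in Gold, and the seed coat mean was 17.6 CPM in M11, 252 CPM in Redmoon and 2.79 CPM in Gold.

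With the Redmoon and Gold labels of the seed coat libraries exchanged, the differences of Lcu.2RBY.7g031050 came closer together, at 7.69 in Redmoon and 6.68 in Gold, beside the 7.97 of M11. As labelled, Redmoon seed coat held 82.4% of the embryo mean of Lcu.2RBY.7g031050 in CPM, against 2.11% for the sum of the other 14 vicilin genes. As labelled, Gold seed coat held 0.0298% of the embryo mean, against 0.524% for the other 14. With exchanged labels the seed coat held 0.911% of the Redmoon embryo mean, against 0.529% for the other 14, and 2.69% of the Gold embryo mean, against 2.10% for the other 14.

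For Lcu.2RBY.7g031150 the difference of embryo over seed coat was 6.10 on the log2 scale in M11 (SE 0.39, edgeR adjusted p = 1.98e-21), 5.57 in Redmoon (SE 0.14, edgeR adjusted p = 5.15e-42) and 7.18 in Gold (SE 0.14, edgeR adjusted p = 7.77e-48). By pooled counts the embryo rate in M11 was 55.0 times the seed coat rate (95% interval 18.7 to 268), which rests on 3 seed coat counts. With exchanged labels the log2 differences were 6.97 in Redmoon and 5.78 in Gold. All of the other 14 vicilin genes were higher in M11 embryos than in M11 seed coat, with a median of 6.42, and 13 of 14 were higher in embryos of each cultivar. Among all genes 39.9% were higher in embryos of M11, 43.0% in those of Redmoon and 39.6% in those of Gold.

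To test whether tissues differ in a line difference, the interaction was fitted, as the difference in embryos minus that in seed coat. For Lcu.2RBY.7g031050 it was 6.80 between M11 and Redmoon (edgeR adjusted p = 2.55e-47), -5.23 between M11 and Gold (edgeR adjusted p = 3.45e-34) and -12.03 between Redmoon and Gold (edgeR adjusted p = 4.58e-59). Calls made up 47.2%, 55.3% and 55.6% of all genes in these tests, in the same order. With exchanged seed coat labels the values were 0.29 (edgeR adjusted p = 0.178), 1.29 (edgeR adjusted p = 1.44e-13) and 1.00 (edgeR adjusted p = 2.30e-08), so that the first was not called and the other two changed sign. The sizes and signs of these interactions thus differ between the labellings, and those of M11 with Gold and of Redmoon with Gold are called under both.

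For Lcu.2RBY.7g031150 the interaction was 0.53 between M11 and Redmoon (edgeR adjusted p = 0.626) and -1.08 between M11 and Gold (edgeR adjusted p = 0.462), neither called. With exchanged labels these were -0.87 (edgeR adjusted p = 0.588) and 0.32 (edgeR adjusted p = 0.784), and without M11 seed coat replicate 1 they were 4.46 (edgeR adjusted p = 0.0601) and 2.85 (edgeR adjusted p = 0.287). Between Redmoon and Gold it was -1.61 (edgeR adjusted p = 2.43e-05), and with exchanged labels it was 1.19 (edgeR adjusted p = 0.00193). A change of sign between tissues in the contrast of Redmoon with Gold was frequent as labelled. Of the other vicilin genes called in both tissues, 10 of 11 had opposite signs, as had 4682 of the 6676 genes called in both among all genes, or 70.1%.

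**Figure D4:**
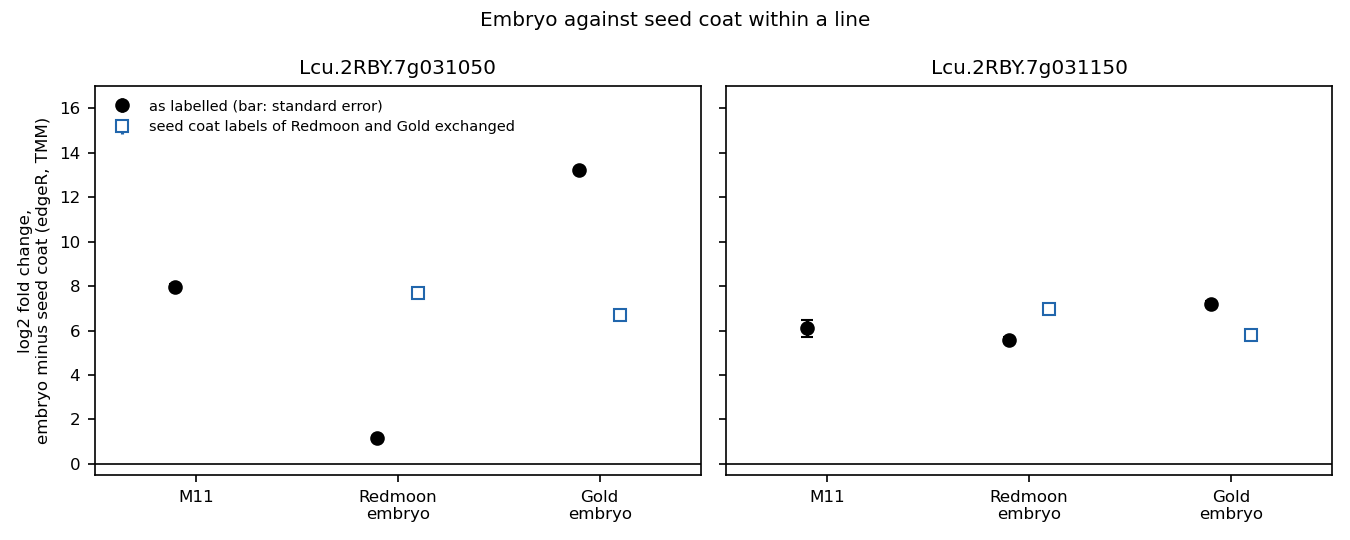
Log2 difference of embryo over seed coat for each gene and line (log2 fold change), with the seed coat labels of Redmoon and Gold as given (filled circles) and exchanged (open squares); bars are standard errors, mostly smaller than the symbols. As labelled, Lcu.2RBY.7g031050 lies at 7.97 in M11, 1.17 in Redmoon and 13.20 in Gold, and with exchanged labels the 3 lines lie between 6.68 and 7.97.

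Ordered as labelled over all 6 groups on the common scale of the 18 libraries, the mean level of Lcu.2RBY.7g031050 was 19624 TMM-scaled CPM in Gold embryos, 2996 in M11 embryos, 430 in Redmoon embryos, 191 in Redmoon seed coat, 11.9 in M11 seed coat and 2.06 in Gold seed coat. The libraries of neighbouring groups in this order did not overlap. Within a tissue, 54.9% to 74.4% of all genes also had no overlap between 2 lines. The share of all genes is not given here for pairs that cross tissues. The order for Lcu.2RBY.7g031150 was 80.4 in Gold embryos, 70.8 in Redmoon embryos, 7.87 in M11 embryos, 1.41 in Redmoon seed coat, 0.554 in Gold seed coat and 0.114 in M11 seed coat. The libraries of neighbouring groups did not overlap in this order either, but the places of Gold and Redmoon embryos turned round with library totals, and M11 seed coat rests on 3 counts.

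Most genes with neighbouring identifiers had too few counts to be tested. A window of 15 identifiers to each side of the middle of the pair held 29 genes besides the pair, of which 11 had 0 counts in all 18 libraries and 8 were tested in each tissue. In embryos the test called 5 of the 8 between M11 and Redmoon, 4 between M11 and Gold and 5 between Redmoon and Gold. In seed coat it called 5, 6 and 7 of the 8 in the same comparisons. With 8 genes these counts are too few to be set apart from the percentages of all genes given above. The 4 of 8 between M11 and Gold embryos lies below its percentage, and the 7 of 8 between Redmoon and Gold seed coats lies above. With 50 identifiers to each side these 2 shares were 65.2% and 70.4%, beside 74.0% and 66.4% of all genes.

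**Figure D5:**
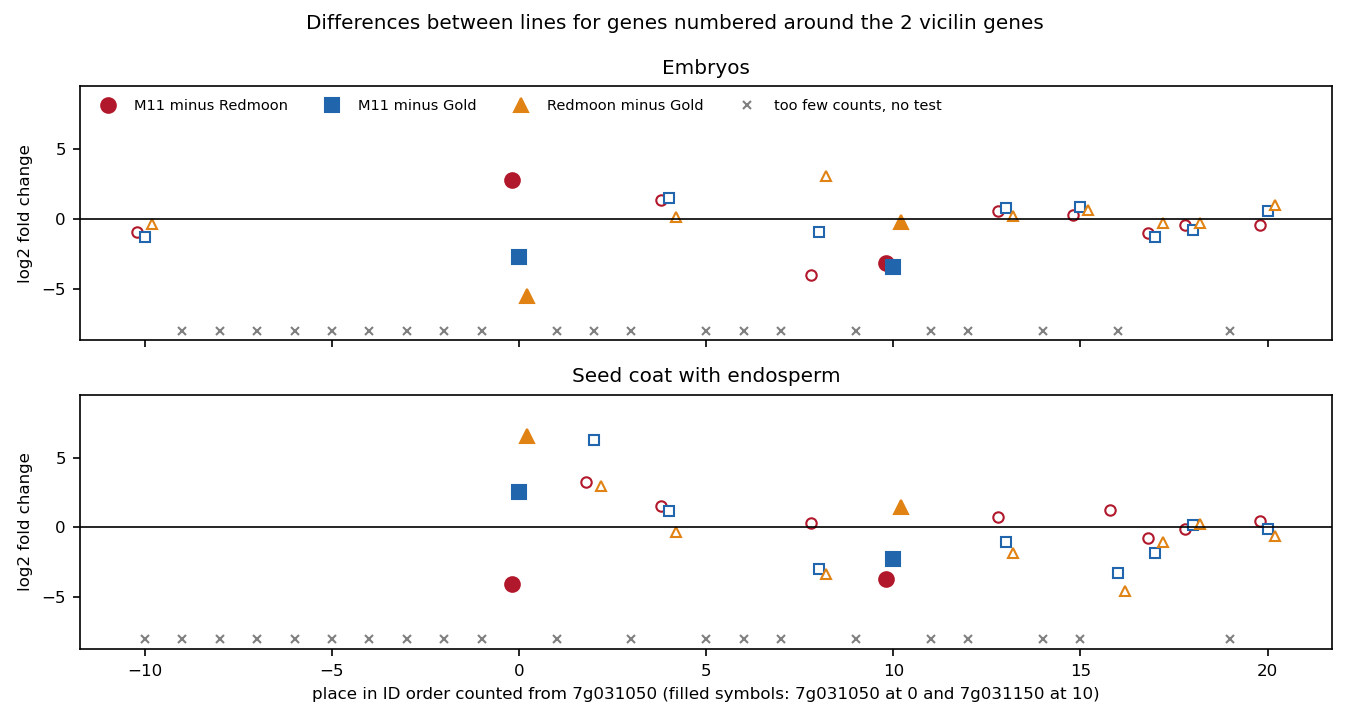
Log2 fold change of the genes tested around Lcu.2RBY.7g031050 and Lcu.2RBY.7g031150, by their place in the order of identifiers counted from Lcu.2RBY.7g031050, for the 6 line comparisons, with filled symbols for the 2 vicilin genes, open symbols for their neighbours and crosses for genes with too few counts. At Lcu.2RBY.7g031050 the symbols lie at 2.79, -2.76 and -5.55 in embryos and at -4.01, 2.56 and 6.57 in seed coat.

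Between the pair lie 9 identifiers, 3 of them at 0 in every library, and 3 genes there were tested in seed coat and 2 in embryos. Lcu.2RBY.7g031130, the tested gene closest to Lcu.2RBY.7g031150, had 5, 6 and 4 counts in M11 embryos, 48, 61 and 45 in Redmoon embryos and 2, 7 and 1 in Gold embryos. Redmoon stood above both other lines. It was lower in M11 than in Redmoon embryos by a log2 fold change of -4.06 (edgeR adjusted p = 2.92e-11). Redmoon embryos exceeded Gold embryos by 3.08 (edgeR adjusted p = 1.60e-07). In embryos Lcu.2RBY.7g031130 passed the filter on low counts only through the Redmoon libraries, where it was highest. These edgeR p-values are therefore conditional on that filter and give no support of their own. In seed coat Gold was the high line for Lcu.2RBY.7g031130, with 164, 144 and 184 counts against 13, 3 and 2 in M11, and Redmoon had 10, 4 and 6. In both tissues the cultivar that was high for Lcu.2RBY.7g031130 was thus the one that was low for Lcu.2RBY.7g031050.

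Lcu.2RBY.7g031090 was higher in M11 than in both cultivars in both tissues. Its log2 fold change in embryos was 1.33 relative to Redmoon (edgeR adjusted p = 2.92e-10) and 1.48 relative to Gold (edgeR adjusted p = 8.66e-10). In seed coat it was 1.50 relative to Redmoon (edgeR adjusted p = 3.81e-06) and 1.17 relative to Gold (edgeR adjusted p = 1.14e-05). The cultivars did not differ past the threshold for Lcu.2RBY.7g031090 in either tissue. Lcu.2RBY.7g031070 was seen in seed coat only, with 13, 9 and 14 counts in M11, 5, 0 and 0 in Redmoon and 0, 0 and 1 in Gold, and all 9 embryo libraries were at 0. Its seed coat level was called higher in M11 than in Redmoon (edgeR adjusted p = 5.27e-06) and than in Gold (edgeR adjusted p = 3.88e-11). The counts are too few for a useful fold. Lcu.2RBY.7g031070 passed the filter on low counts only through the M11 libraries, so these p-values give no support of their own.

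The genes most like each vicilin gene were sought over the 6 group means, by the root mean square difference of centred log2 levels (with 0.5 CPM added) among 22080 genes. For Lcu.2RBY.7g031050 the nearest were Lcu.2RBY.6g054660 at 0.99, Lcu.2RBY.6g054710 at 1.01 and Lcu.2RBY.1g066140 at 1.12. None of them is a listed vicilin gene, and the same 3 genes were nearest with library totals. None of these 3 shared its excess of M11 over Redmoon embryos. Their mean TMM-scaled CPM in M11 and Redmoon embryos was 1568 and 1655, 4931 and 5542, and 2557 and 3991, in that order. The vicilin gene nearest to Lcu.2RBY.7g031050 was Lcu.2RBY.1g038070 at 1.42. For Lcu.2RBY.7g031150 the nearest genes were Lcu.2RBY.3g000520 at 0.33, Lcu.2RBY.2g001390 at 0.38 and Lcu.2RBY.5g056900 at 0.39, and 2 of these 3 remained with library totals. Seed coat levels of Lcu.2RBY.7g031150 and Lcu.2RBY.3g000520 lie around or below the 0.5 CPM added, which compresses differences there, so these distances are not comparable with those from Lcu.2RBY.7g031050. The nearest vicilin gene to Lcu.2RBY.7g031150 was Lcu.2RBY.4g077560 at 1.09. Over the 3 embryo groups alone the nearest to Lcu.2RBY.7g031150 were Lcu.2RBY.5g047550, Lcu.2RBY.L017900 and Lcu.2RBY.5g023050, at 0.013, 0.014 and 0.019, and 1 of these 3 remained with library totals. In M11 embryos Lcu.2RBY.5g047550 had 0.0158 and Lcu.2RBY.L017900 had 0.0465 TMM-scaled CPM, far under the 0.5 CPM added, so the small distances of both are set by that addition and are not a likeness in fold. The pair itself differed by 2.69 on this scale, so that each had closer neighbours in the vicilin family than the other.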

How the data were processed

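Poly(A) RNA was sequenced from 18 libraries, 3 for each line and tissue, with groups and replicate numbers taken from the sample labels. The authors deposited 58243 genes with raw read counts for every library. The submitters' processing notes name STAR 2.7.10, with no role. For the genome build, the counting tool and the treatment of multi-mapping reads, the detail is not given in the sources used here. Neither genome nor sequence was used.

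After filterByExpr and TMM scaling, edgeR 4.0.16 under R 4.3.3 tested the counts (glmQLFit, glmQLFTest). P-values were Benjamini-Hochberg adjusted over all tested genes, with a threshold of 0.05. Each tissue had a fit of 9 libraries (18623 genes in embryos, 19386 in seed coat), and tissues were compared in 1 fit of 18 libraries (22081 genes). Of the pair of vicilin genes, both passed the filter in each of these fits. Shares and ratios were compared by exact permutation tests, and seed coat counts of Lcu.2RBY.7g031150 by exact intervals of Poisson rates. All pairs of libraries within a group differed by more than sampling noise (chi-square per degree of freedom of at least 1.55). Technical libraries can also differ in this way, so the test cannot show that the libraries are independent samples. Each library was counted as a sample.

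The genes, lists and tests were chosen with earlier results of these data known, and the comparison of Redmoon with Gold because of the wide difference of Lcu.2RBY.7g031050. Besides the pair, the text names tested genes numbered between them, the 3 genes most like each by pattern, and a listed vicilin gene where the pair is ranked. The alternatives were DESeq2 1.42.0, its size factors, library totals with and without the vicilin genes, other filters, other sets of libraries in the fit, the replicate number as a block, exchanged seed coat labels, other denominators and each library left out in turn. Leaving a library out of the Poisson rates was added after seeing the data. On simulated counts with 200 changed genes, the fit recovered 94% of them between M11 and Redmoon embryos (18099 genes). The changes were of 1 and 2 on the log2 scale, up and down. The fit recovered 86% between their seed coats (18773 genes) and 92% between M11 embryo and seed coat (20989 genes, with 6.60% of calls false). For the interaction of M11 and Redmoon it recovered 81% (21022 genes, 70% at a log2 change of 1 and 92% at 2). The simulation gave every gene the same spread and changed none of the genes with few counts. Its recoveries therefore do not apply to genes near the limit of detection, such as Lcu.2RBY.7g031150 in seed coat. Recovery where most genes change was not tested. In these data 63.6% of all genes were called between M11 and Redmoon embryos.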

Additional observations from a re-analysis of the deposited data

Results flagged for a closer look

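The difference between lines depended on the tissue by a test of the interaction (edgeR, all 18 libraries) in 4 results. For Lcu.2RBY.7g031050 the difference in embryos minus that in seed coat was 6.80 on the log2 scale between M11 and Redmoon, -5.23 between M11 and Gold and -12.03 between Redmoon and Gold. For Lcu.2RBY.7g031150 it was -1.61 between Redmoon and Gold. Each of these sets a cultivar embryo beside a cultivar seed coat of the same label, and the 116 genes that were on in opposite cultivars in the tissues bear on those labels. The part of the labels in these results cannot be told apart from that of the lines with the counts alone.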

How the results depend on the processing

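Of 191 values of the pair under other settings, 182 kept their direction and their side of the threshold, 1 lost its call and 8 changed sign. Of 178 values with 1 library left out, 172 kept both, and for Lcu.2RBY.7g031050 all 90 did. With exchanged seed coat labels the interactions of Lcu.2RBY.7g031050 were 0.29, 1.29 and 1.00 for M11 against Redmoon, M11 against Gold and Redmoon against Gold, and those of Lcu.2RBY.7g031150 were -0.87, 0.32 and 1.19. For Lcu.2RBY.7g031150 Redmoon minus Gold in embryos was 0.38 with library totals and 0.35 with totals without the vicilin genes, and its interaction of M11 and Gold was 0.043 with library totals.

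With 1 library left out, the log2 fold change of Lcu.2RBY.7g031150 ranged from -0.35 to -0.10 for Redmoon minus Gold in embryos and from -6.40 to -1.66 for M11 minus Gold in seed coat. It ranged from -7.85 to -3.11 for M11 minus Redmoon in seed coat and from 5.51 to 10.02 for embryo over seed coat in M11, where -7.85 and 10.02 come without M11 seed coat replicate 1 and its 3 counts, and -3.11 and 5.51 without M11 seed coat replicate 3. Its interactions ranged from -0.040 to 4.46 for M11 and Redmoon and from -1.65 to 2.85 for M11 and Gold. Its pooled seed coat rate ranged from 8.04 to 14.4 times M11 in Redmoon, from 3.09 to 5.04 times M11 in Gold and from 2.23 to 3.01 for Redmoon over Gold, with no ratio without M11 replicate 1.

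Library totals moved the share of calls that were higher from 49.6% to 85.8% between M11 and Redmoon embryos, from 49.8% to 87.8% between M11 and Gold embryos and from 50.2% to 86.9% between Redmoon and Gold embryos. In seed coat the share moved from 52.1% to 62.3% between M11 and Redmoon. For embryo over seed coat it moved from 50.2% to 37.9% in M11, from 51.3% to 31.9% in Redmoon and from 49.4% to 17.9% in Gold, and for the interactions from 43.4% to 73.0%, from 50.8% to 86.4% and from 55.6% to 81.1%. The embryo excess of Lcu.2RBY.7g031050 in Redmoon was then 0.28 and still called (edgeR adjusted p = 0.000119).

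As a percent of the whole library, Lcu.2RBY.7g031050 made up 0.331, 0.0306 and 0.938 in M11, Redmoon and Gold embryos and 0.00176, 0.0252 and 0.000279 in their seed coats. Lcu.2RBY.7g031150 made up 0.000869, 0.00505 and 0.00384 in embryos and, in seed coat, 0.000186 in Redmoon and 7.51e-05 in Gold. A minimum of 10 counts in every library left fewer genes to test and called 7225, 8490 and 6791 genes in embryos in place of 11842, 13779 and 10271. It called 8712, 9027 and 8706 genes between tissues in place of 17535, 18534 and 17707, and 6353, 7185 and 6995 in the interactions in place of 10422, 12203 and 12267. Under it Lcu.2RBY.7g031150 was not tested in seed coat or between tissues. It was also not tested in seed coat with only M11 and Redmoon or only M11 and Gold in the fit, nor without Redmoon seed coat replicate 3, and these are not among the values counted above.

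Same-numbered libraries had deviations correlated between -0.0429 and 0.0681. In 0 of 9 comparisons did all 6 libraries correlate best with their own number. The most was 4 of 6, for M11 against Gold embryos and for embryo against seed coat of M11. With 3 libraries per group this cannot show whether same-numbered libraries share a plant or a preparation. The replicate block changed no call of the pair and gave, for Lcu.2RBY.7g031050 in embryos, 2.79 between M11 and Redmoon, with 11709 genes called in place of 11842.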
